A study of Danio rerio with 4 samples.

Results

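The eyes of zebrafish 168 h after the optic nerve was cut were compared with the eyes of sham-operated fish on 3 arrays, out of 11 arrays in the series. These arrays were chosen by the hour given in the labels and in the array names, with no use of measured values. On each array the RNA of injured eyes and the RNA of sham-operated eyes were labelled with different dyes, Cy5 and Cy3, and hybridised together. Each pool combined the RNA of several fish, so the 3 arrays show the spread between pools and not between fish. The injured fish had the muscles around the eye cut and the optic nerve severed with the ophthalmic artery spared. The sham-operated fish had the same muscles cut and the nerve left whole, so that cut muscle and anaesthesia were common to both pools. All fish carried the label wildtype (zdr), came from a pet store and were kept in a 12 h light/dark cycle, and the age of the fish is not given in the sources used here. The tissue was the eye after removal of the lens and sclera. The series also holds 3 arrays at 24 h, 3 arrays at 3 h, each with sham pools of their own, and 2 arrays of unoperated control pools set against each other. The control arrays share 1 pool, per the array names, so their values are not independent, and the labels speak of 4 control samples.

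The optic nerve carries the axons of the retinal ganglion cells, the neurons that send the output of the retina to the brain. Fish, unlike mammals, regrow these axons after the nerve is cut, and the regrowing neurons are known to make new tubulin, cell adhesion molecules and stress-induced transcription factors. Rods and cones, which detect light, lie on the far side of the retina and have no axon in the nerve.

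Each array held 14784 positions, of which 14067 carried zebrafish probes, 173 Arabidopsis probes and 544 were empty. A spot was taken as detected where its intensity passed the 95th percentile of the empty positions on the same array and in the same dye. Of the Arabidopsis probes, 26.6%, 53.2% and 24.9% passed this limit in Cy3 on 168 h arrays 1, 2 and 3. In Cy5 it was 9.25%, 9.83% and 4.62%. A detected spot is thus brighter than most empty positions, which does not by itself show that the gene was expressed. At 168 h the injured pools had 45.2%, 43.3% and 41.7% of zebrafish probes above that limit on arrays 1, 2 and 3, against 33.8%, 71.9% and 19.1% in the sham pools. The names of the arrays put the injured pool in Cy3 on arrays 1 and 3 and in Cy5 on array 2, whereas the sample labels give Cy5 for the injured pool on every array. The larger share above the limit was thus in Cy3 on each 168 h array. It was also in Cy3 on the unoperated control arrays, at 68.6% and 68.6% against 35.2% and 40.2% in Cy5. Ratios below follow the array names, with positive values for more signal in the injured pool, and on the log2 scale. The authors' deposited table of 168 h values ran with the mean of the 3 ratios oriented in this way (r = 0.999 across probes) and not with Cy5 over Cy3 (r = -0.435), once its entries were matched to spots through the 3 h and 24 h values. Array 2 was the only 168 h array with the injured pool in Cy5. Its injured-over-sham ratios correlated at -0.254 with those of array 1 and -0.249 with those of array 3, while arrays 1 and 3 correlated at 0.317, across zebrafish probes that share dyes and print positions. As Cy5 over Cy3 the same 3 correlations were 0.254, 0.249 and 0.317, and after removal of the dye effect fitted over the 9 injured-against-sham arrays they were 0.18, 0.253 and -0.03. With the dye effect removed, the lowest correlation was thus between arrays 1 and 3. Genes whose estimate moved by more than 1.5 times when array 2 was left out are given with and without it. Values without array 1 or array 3 are given for some genes only. In limma 1555 zebrafish probes had a dye effect with an adjusted p under 0.05. Ratios of single arrays still hold the dye effect, whereas the limma estimates have it removed.

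No single probe passed adjustment over all probes at 168 h. Over all named genes with 1 probe each, 12.5% of those detected were higher and 11.1% lower in injured pools on all 3 arrays. Independent random signs on 3 arrays would put 12.5% in each direction. The 3 arrays were not independent, since their ratios still hold the dye effect. The tubulins tubb5, tuba8l3 and tuba8l4, the stress factor atf3, the annexin anxa2a and 32 of 69 detected ribosomal protein genes were higher on all 3 arrays, while the tubulin tuba7l was lower. Also lower on all 3 were 6 of 10 detected rod phototransduction genes, 4 of 14 cone genes and 11 of 33 respiratory chain genes. In limma 0 of 14065 probes had an adjusted p under 0.05, with a smallest adjusted p of 0.0683 for tubb5. An unadjusted p under 0.05 was reached by 1101 probes (7.83%), 595 of them higher (4.23%) and 506 lower (3.6%) in injured pools. The same count was 703 (5.0%) at 24 h and 630 (4.48%) at 3 h. The median standard error of a 168 h limma estimate was 0.339, and the number of fish in a pool is not given in the sources used here.

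Agreement between arrays was counted among the 4924 probes above the empty positions in at least 1 channel on each of the 3 arrays. Of these, 657 (13.3%) were higher and 505 (10.3%) lower in the injured pool on every array. The counts at 24 h were 666 (13.8%) higher and 446 (9.25%) lower of 4823, and at 3 h they were 476 (10.6%) and 328 (7.33%) of 4473. The count of probes that shared a direction was thus close to that at 24 h. At each time the shares were near or below what independent random signs would give, but these ratios still hold the dye effect. With the fitted dye effect removed, 961 of the 4924 probes were higher and 790 lower at 168 h. That setting was chosen after seeing the data, and the effect was fitted on the same arrays. The difference between the times lay in the sizes. With at least 0.5 on each array, 93 probes were higher and 48 lower at 168 h, against 45 and 28 at 24 h and 22 and 10 at 3 h. With at least 1 on each array, 7 were higher and 6 lower at 168 h, against 2 and 1 at 24 h and 2 and 0 at 3 h. These counts between times were not tested. The standard deviation of the log2 ratios over zebrafish probes was 0.71, 0.83 and 0.92 on 168 h arrays 1, 2 and 3. It was 0.79, 0.67 and 0.72 at 24 h and 0.78, 0.80 and 0.75 at 3 h. The part of this spread in the counts was not tested. Among the 1947 probes detected in both channels of all 3 arrays, the balance ran the other way, with 246 higher and 370 lower. The lower probes were also brighter, with a median log2 intensity of 10.05, against 8.78 for the higher probes and 8.85 for all detected probes. With median centring in place of loess the split was 785 higher and 273 lower, and with the dyes taken from the labels it was 498 higher and 1506 lower.

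**Figure D1:**
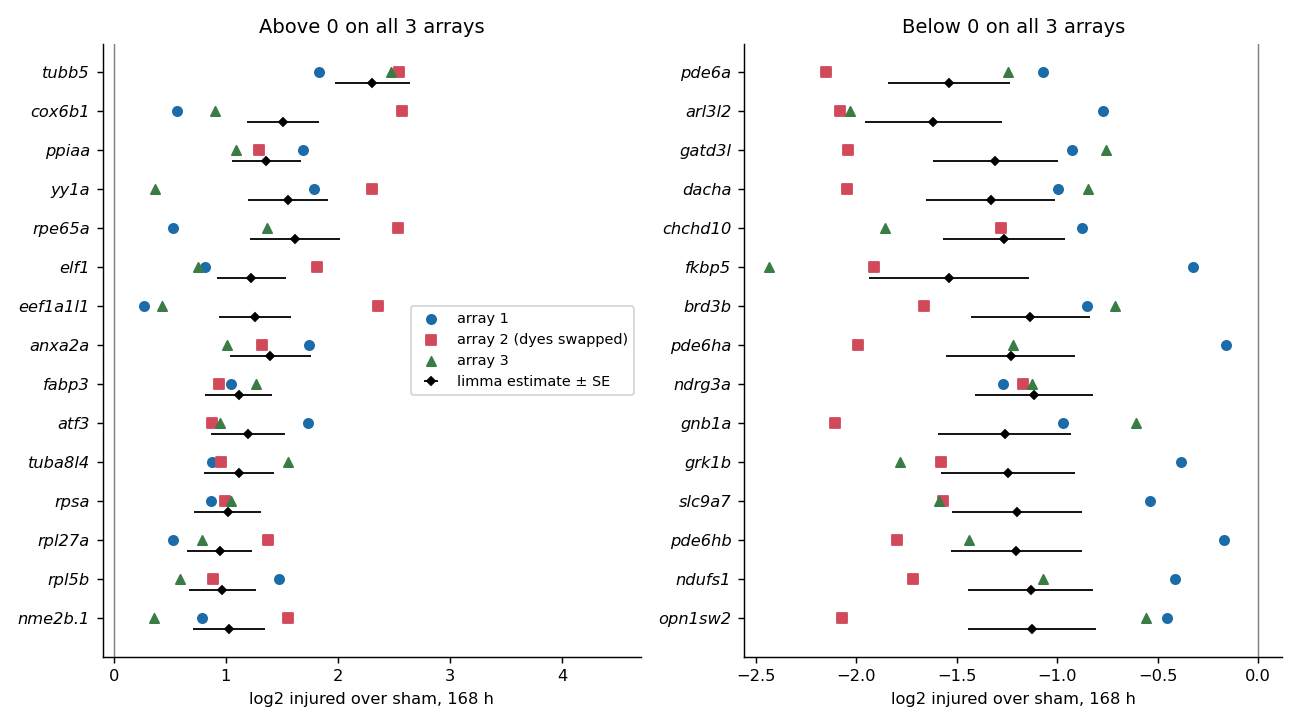
Log2 ratio of injured over sham at 168 h for the 15 genes above 0 (left) and the 15 below 0 (right) that had the smallest p-values among probes detected in both channels of all 3 arrays with the same sign on each. Circles, squares and triangles are the 3 arrays, and diamonds with bars are the limma estimate with its standard error; tubb5 lies between 1.83 and 2.54 on the 3 arrays and pde6a between -2.15 and -1.07.

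The highest estimate of any named gene belonged to a gene of axon growth. The beta tubulin tubb5, a building block of microtubules in growing neurons, had normalised intensities of 1756, 4171 and 2724 in the injured pools of arrays 1, 2 and 3, against 495, 718 and 491 in the sham pools. All 3 injured pools lay above all 3 sham pools. Here and below, intensities were normalised within arrays and not scaled between them. Comparisons of pools across arrays are thus rough, and the ratio within an array is the paired measure. The ratios were 1.83, 2.54 and 2.47, and the limma estimate was 2.31 ± 0.33 (SE), or 4.95-fold, with an adjusted p of 0.0683. Every SE in the text comes from the joint fit of all injured-against-sham arrays, 3 of them at 168 h. Its variance is shared by the times. It is thus not the spread of the 168 h arrays, which the 3 ratios show. The tubb5 estimate stood at -0.01 ± 0.33 at 24 h and 0.19 ± 0.33 at 3 h. Between unoperated pools its ratios were 0.82 and -0.75, where the sign has no meaning. Ratios between unoperated pools are given for some genes only. Another detected probe of tubb5 stood at 0.78. The gene came under an adjusted p of 0.05 in limma with no background subtraction (1.86, adjusted p = 0.0144), with median centring (2.56, adjusted p = 0.00973), with foreground medians (2.39, adjusted p = 0.02), over probes detected in both channels only (2.31, adjusted p = 0.00945), without array 1 (2.51, adjusted p = 0.0456) and without array 2 of 3 h (2.34, adjusted p = 0.0307). In the 11 other alternatives of 17 it did not, with adjusted p-values between 0.0633 and 0.999 in limma, 0.818 of them without array 2 and 0.48 without array 3. Its estimate lay between 1.86 and 2.56 in all 17.

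Alpha tubulins followed the same direction at smaller size. For tuba8l4 the injured pools had 11910, 9284 and 5450, against 6509, 4800 and 1856 in the sham pools. The injured pool was brighter on each array, although the groups overlapped across arrays. Its estimate was 1.12 ± 0.31 (adjusted p = 0.404 in limma), and its 4 other detected probes stood between 0.52 and 0.94. The related gene tuba8l3 had ratios of 0.81, 1.2 and 1.97 (1.34 ± 0.31) and tuba1b, another alpha tubulin, had 0.92, 0.35 and 1.17 (0.64 ± 0.53). In both genes every array was above 0, with tuba1b detected in 1 of 3 sham pools. The tubulin tuba7l went the other way on each array, at -0.56, -0.53 and -0.73 (-0.70 ± 0.40, and -1.09 without array 2). Of the 12 measured tubulin genes, 6 had an estimate above 0 and 6 below, 9 were detected, 5 were higher and 1 lower on all 3 arrays, and 3 had an unadjusted p under 0.05, all higher. Over all named genes the shares were 12.5% higher and 11.1% lower among those detected, and 4.34% of those tested were higher and 3.64% lower at an unadjusted p under 0.05. The tubulin median was 0.16, beside 0.001 for all named genes, so the list as a whole was not shifted as these members were. Without array 1 that median was 0.35, and between unoperated pools it was 0.08 and -0.37.

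The transcription factor atf3, which is switched on by stress in neurons with cut axons, had 9207, 2676 and 2443 in injured pools, against 2763, 1455 and 1268 in sham pools. Its ratios of 1.74, 0.88 and 0.95 were all above 0, with array 1 the highest, and the estimate was 1.2 ± 0.33 (adjusted p = 0.397 in limma). At 24 h it stood at 2.01 ± 0.33 and at 3 h at 0.05 ± 0.33. The cell adhesion genes alcama and l1cama, whose proteins guide growing axons, had ratios of 1.37, 0.81 and 0.04 (0.80 ± 0.35) and of 0.43, 1.47 and 0.09 (0.71 ± 0.33). Without array 2 l1cama stood at 0.17. Both were close to 0 on array 3. Between unoperated pools the ratios were 0.53 and 0.39 for alcama and -0.31 and -1.35 for l1cama. The transcription factor sox11b had 0.56, 0.27 and 0.63 (0.47 ± 0.34) and its duplicate sox11a 1.36, -0.10 and 0.67 (0.52 ± 0.31), so that only sox11b of this pair was above 0 on each array. Other familiar genes of the programme gave little to measure. The growth cone protein gap43 was detected in 0 injured and 1 sham pool (0.25 ± 0.36, and -0.17 without array 2), the transcription factor jun in 1 of each (-0.10 ± 0.31, and 0.25 without array 2), and the cytokine signal carrier stat3 in 0 injured and 1 sham pool (-0.29 ± 0.36, and -1.16 without array 2).

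Of the 24 measured genes of the axon regeneration list, 17 were detected, 7 of them higher and 0 lower on all 3 arrays. Of all detected named genes, 12.5% were higher and 11.1% lower. An unadjusted p under 0.05 in limma was reached by 4, tubb5, atf3, alcama and l1cama, all higher, beside 4.34% higher and 3.64% lower over all named genes. The gene tubb5 is also counted in the tubulin list, and atf3 in the immediate early list. The list median was 0.17, against 0.001 for all named genes, and between unoperated pools it was 0.19 and -0.18. With array 1 or array 2 left out, the number higher at that p was 2 and the number lower also 2, and the median was 0.29 without array 1 and 0.08 without array 2. Ganglion cell genes showed no common direction. Of 14 measured, 4 were detected, 0 were in 1 direction on all 3 arrays, and the median was 0.04 (-0.17 without array 2). The RNA-binding protein rbpms2b, a marker of ganglion cells, had ratios of 0.80, -0.54 and 0.97 (0.35 ± 0.32, and 0.95 without array 2), and the homeobox gene isl2b had 0.62, 0.32 and -0.33 (0.07 ± 0.39, and -0.47 without array 2). In RNA from eye tissue with many cell types, fewer cells of a type and less RNA per cell cannot be told apart.

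**Figure D2:**
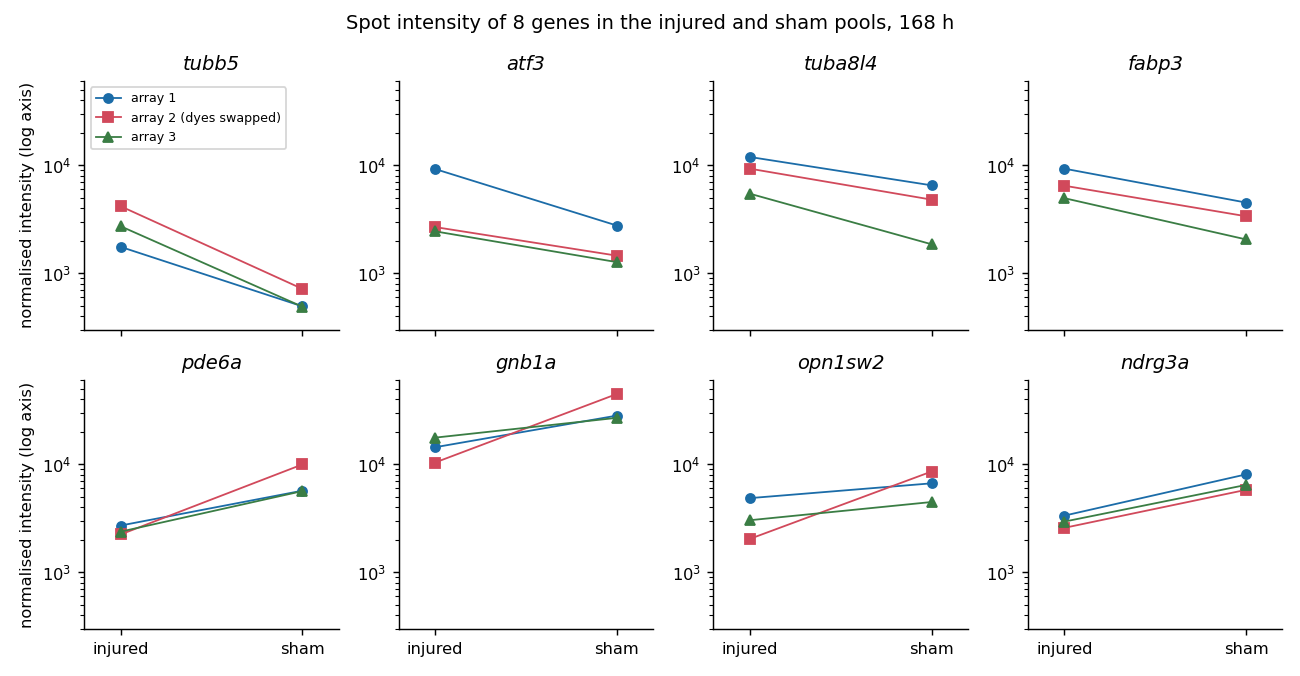
Normalised spot intensity (log axis) of 8 genes in the injured pool (left point) and the sham pool (right point) of each 168 h array, joined by a line. For tubb5, atf3, tuba8l4 and fabp3 each line runs down to the sham pool, and for pde6a, gnb1a, opn1sw2 and ndrg3a each runs up; ndrg3a has 3348, 2581 and 2948 in injured pools and 8064, 5802 and 6440 in sham pools.

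Other single genes higher in injured pools were of mixed function. The fatty acid carrier fabp3 had 9286, 6458 and 4953 in injured pools, against 4508, 3368 and 2056 in sham pools. Its ratios lay close together, at 1.04, 0.94 and 1.27 (1.11 ± 0.30, adjusted p = 0.397 in limma), with -0.01 at 24 h and -0.05 at 3 h. The cyclophilin ppiaa, which helps proteins fold, had 7176, 8561 and 4854 in injured pools, against 2222, 3494 and 2280 in sham pools. The ratios were 1.69, 1.29 and 1.09 (1.36 ± 0.31), and all injured pools lay above all sham pools. Between unoperated pools the ppiaa ratios were -0.44 and -1.23, the second of a size near that estimate, and another detected probe stood at 0.575 at 168 h. Annexin anxa2a, a calcium-dependent membrane-binding protein, had ratios of 1.74, 1.32 and 1.01 (1.40 ± 0.36). It had stood at 1.2 ± 0.36 at 24 h. The visual cycle enzyme rpe65a, made in the pigment epithelium, had 2348, 5899 and 3390 in injured pools, against 1628, 1020 and 1317 in sham pools. Its ratios were 0.53, 2.53 and 1.36 (1.61 ± 0.40), with no overlap between the pools, and 2 other detected probes stood at 0.24 and 0.71. It was the 1 gene of 9 in the pigment epithelium and visual cycle list with an unadjusted p under 0.05, and the list median was 0.02. The summed intensity of 3 pigment epithelium markers on the arrays, rpe65a among them, was 2772 to 7435 in injured pools and 1705 to 1974 in sham pools. Of these sums rpe65a itself made up 2348 to 5899 and 1020 to 1628, so they are not separate from its own values. The marker dct had ratios of -0.19, 1.11 and -0.02. The part of more pigment epithelium in the injured pools was not tested.

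The transcription factors yy1a and elf1 were also among the 15 genes plotted above 0. The ratios were 1.78, 2.30 and 0.37 for yy1a (1.55 ± 0.36) and 0.81, 1.81 and 0.75 for elf1 (1.23 ± 0.31). Another detected probe of each was weaker, at 0.26 for yy1a and 0.67 for elf1. The translation elongation factor eef1a1l1 reached 1.26 ± 0.32, with 0.27, 2.35 and 0.43 on the arrays, and stood at 0.93 without array 2. Its fitted dye effect, as Cy5 over Cy3, was 0.72 (adjusted p = 0.0267 in limma). The nucleoside diphosphate kinase nme2b.1 had 0.79, 1.56 and 0.35 (1.03 ± 0.32). For injured over sham, all of these genes had an adjusted p between 0.397 and 0.441 in limma.

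Ribosomal protein genes, which encode the protein parts of the ribosome, had the highest median of the 35 lists. Of 71 measured, 68 had an estimate above 0, 69 were detected, and 32 were higher and 1 lower on all 3 arrays, where 12.5% of all detected named genes were higher. At an unadjusted p under 0.05 there were 24 higher and 0 lower, beside 4.34% higher over all named genes. The list median was 0.52, against 0.001 for all named genes, and the array medians were 0.11, 0.95 and 0.34. Array 2 thus carried the largest shift and array 1 the smallest. Without array 2 the median was 0.33 and 0 members kept an unadjusted p under 0.05, without array 1 there were 18 and without array 3 17. The 168 h arrays fitted alone gave 2. Between unoperated pools the median was -0.01 and -0.17, and at 24 h it was 0.39 and at 3 h 0.05. In the authors' deposited table the 168 h median of the list was 0.42.

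Among its members, rpsa, a protein of the small ribosomal subunit, had 3894, 6008 and 2466 in injured pools, against 2135, 3016 and 1196 in sham pools. The ratios were even, at 0.87, 0.99 and 1.04 (1.02 ± 0.30), and 5 of its 10 detected probes were higher on all 3 arrays. For rps15 the ratios were 1.13, 0.75 and 0.93 (0.84 ± 0.29), and for rpl27a they were 0.53, 1.38 and 0.79 (0.95 ± 0.29). The gene rpl5b had all 4 detected probes higher on each array, the one with the smallest p at 1.47, 0.88 and 0.59 (0.97 ± 0.30). The gene rpl35 (0.88 ± 0.30) was higher on each array as well. Ribosomal protein and tubulin genes have near-identical relatives, and cross-hybridisation between these was not tested. Translation factors as a list had a median of 0.05 over 63 genes, 4 of 43 detected members (9.3%) higher on all 3 arrays and 0 lower. Of all detected named genes, 12.5% were higher and 11.1% lower, so the share higher was below that of all genes. The translation factor eef2b had 0.66, 1.55 and -0.09 (0.88 ± 0.30).

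Proteasome genes, which encode the machine that degrades tagged proteins, stood mostly above 0. Of 40 measured, 33 had an estimate above 0, 23 were detected, and 7 of these were higher and 0 lower on all 3 arrays, where 12.5% of all detected named genes were higher. At an unadjusted p under 0.05 were 4 higher and 2 lower, beside 4.34% higher and 3.64% lower over all named genes, and the median was 0.31 (0.26 in the authors' deposited table). Without array 2 the median was 0.20 with 1 higher and 1 lower at that p. Without array 1 it was 0.36 with 8 higher and 1 lower, and without array 3 0.35 with 1 of each. Between unoperated pools the proteasome median was -0.05 and 0.26, and at 24 h it was 0.15. Chaperones and protein folding genes had a median of 0.01 over 57 genes, with 4 of 35 detected members higher and 4 lower on all 3 arrays. These shares of 11.4% each way were close to the 12.5% higher and 11.1% lower of all detected named genes.

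**Figure D3:**
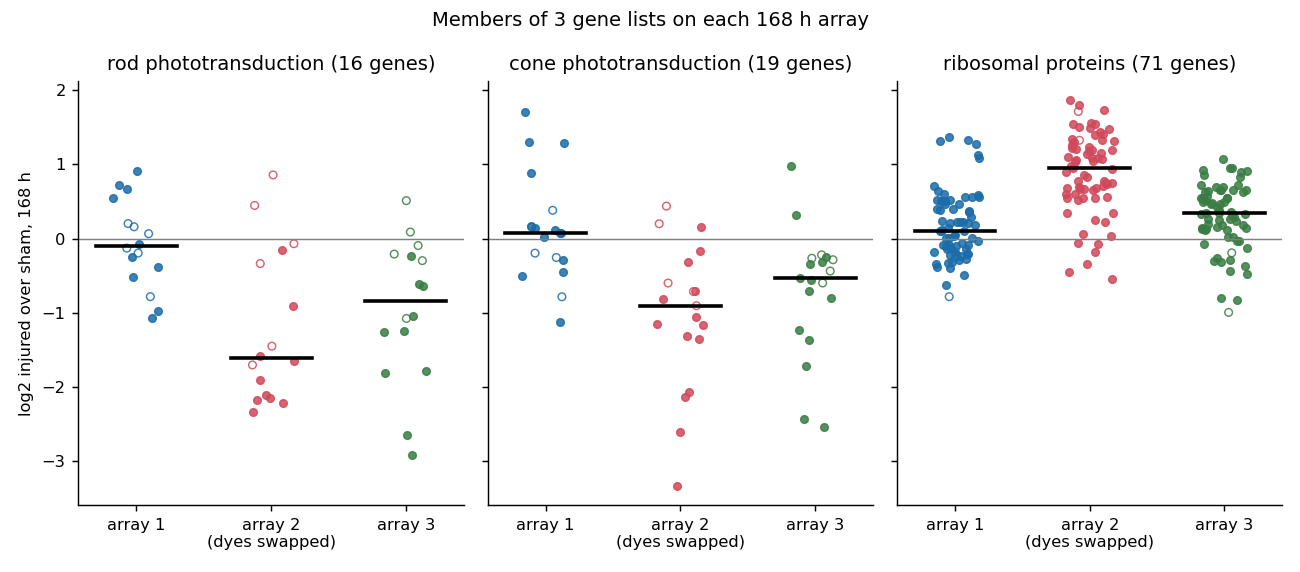
Log2 ratio of injured over sham on each 168 h array for the genes of 3 lists, with 1 point per gene, filled where the probe was above the empty positions on every array and open where it was not. Black bars are medians, which for rod genes are -0.10, -1.61 and -0.84, for cone genes 0.07, -0.90 and -0.53 and for ribosomal protein genes 0.11, 0.95 and 0.34 on arrays 1, 2 and 3.

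Rod phototransduction genes, which turn light into a signal in rods, had the lowest median of the 35 lists. Of 16 measured, 14 had an estimate below 0, 10 were detected, and 6 of these were lower and 0 higher on all 3 arrays, where 11.1% of all detected named genes were lower. At an unadjusted p under 0.05 there were 9 lower and 0 higher, beside 3.64% lower over all named genes. The median was -0.87, against 0.001 for all named genes, and the array medians were -0.10, -1.61 and -0.84. Array 1 lay near 0 and array 2 farthest from it. Without array 2 the median was -0.53 with 2 members lower at an unadjusted p under 0.05. Without array 1 it was -1.23 with 11 and without array 3 -0.75 with 5, and the 168 h arrays alone gave 5. The authors' deposited table had a 168 h median of -0.68. At 24 h the median was -0.30 and at 3 h -0.22, and between unoperated pools it was 0.22 and -0.07.

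The catalytic subunit pde6a of the rod phosphodiesterase had 2711, 2241 and 2379 in injured pools, against 5695, 9956 and 5646 in sham pools. All injured pools lay below all sham pools. The ratios were -1.07, -2.15 and -1.25, and the estimate of -1.54 ± 0.30 had the smallest p of the 15 genes plotted below 0 (adjusted p = 0.397 in limma). With no background subtraction it was -1.52 (adjusted p = 0.0175). Another detected probe of pde6a stood at 0.00, so the probes of this gene did not share the difference. The transducin subunit gnb1a, which relays the signal from rhodopsin, had 14370, 10380 and 17630 in injured pools, against 28200, 44690 and 26880 in sham pools. Here too the groups did not overlap, with ratios of -0.97, -2.11 and -0.61 (-1.26 ± 0.33), and another probe stood at -1.69. Without array 2 it stood at -0.61.

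The rhodopsin kinase gene grk1b had -0.38, -1.58 and -1.78 (-1.25 ± 0.33) and pdcb, phosducin, which binds transducin, had -0.51, -1.90 and -2.65 (-1.64 ± 0.38). Both were nearest to 0 on array 1, and without that array pdcb stood at -2.27 (adjusted p = 0.0456 in limma). Rhodopsin itself, rho, had -0.07, -0.91 and -1.05 (-0.74 ± 0.32), with a spot saturated on 2 of the 3 arrays, which limits the ratio, and 2 other detected probes at -1.23 and -0.93. The transducin gene gnat1, added after its values were seen, had 0.91, -2.33 and -2.91 (-1.55 ± 0.51). It was higher in the injured pool on array 1 and far lower on the other two, and without array 1 it stood at -2.62 (adjusted p = 0.0456 in limma). The summed intensity of 6 rod markers was 34760 to 57260 in injured pools and 53270 to 155200 in sham pools. These ranges overlapped, but they span arrays that were not scaled to each other and leave out the pairing within arrays. The rod transcription factor nr2e3 was not detected in any channel.

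Cone genes stood lower as well, with less agreement between arrays. Of 19 measured, 18 had an estimate below 0, 14 were detected, and 4 of these were lower and 1 higher on all 3 arrays, where 11.1% of all detected named genes were lower. There were 7 lower and 0 higher at an unadjusted p under 0.05, beside 3.64% lower over all named genes. The median was -0.53, and the array medians were 0.07, -0.90 and -0.53. Without array 2 the median was -0.43 with 0 members at that p, without array 1 it was -0.68 with 9, and without array 3 -0.48 with 2. The 168 h median of the list in the authors' deposited table was -0.51. Between unoperated pools it was -0.02 and -0.12.

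The blue opsin opn1sw2 had 4860, 2039 and 3036 in injured pools, against 6662, 8561 and 4474 in sham pools. The injured pool was the dimmer one on each array, by far the most on array 2, with ratios of -0.46, -2.07 and -0.56 (-1.12 ± 0.32). Without array 2 the estimate was -0.55. The ultraviolet opsin opn1sw1 had -0.29, -1.15 and -2.43 (-1.19 ± 0.37) and was detected in 2 of 3 injured pools. The inhibitory subunits of the cone phosphodiesterase gave a more even picture across probes. For pde6ha the probe with the smallest p had -0.16, -1.99 and -1.22 (-1.23 ± 0.32), and its 4 other detected probes lay between -0.99 and -0.56. For pde6hb it had -0.17, -1.80 and -1.44 (-1.20 ± 0.33), and the 3 others lay between -1.28 and -0.80. Other cone genes did not share a direction on all arrays. The calcium sensor guca1c had 0.17, -3.33 and -0.34 (-1.44 ± 0.38, and -0.49 without array 2), the cone transducin gene gnb3b 0.89, -2.60 and -2.54 (-1.54 ± 0.49, and -2.57 without array 1 with an adjusted p of 0.0456 in limma), and the cone arrestin arr3a 1.3, -1.31 and -0.80 (-0.43 ± 0.39). Without array 2 gnb3b stood at -0.91 and arr3a at -0.09. The fitted dye effect of guca1c, as Cy5 over Cy3, was -0.81 (adjusted p = 0.0327 in limma), and its array ratios include it. Summed over 6 cone markers, the intensity was 25970 to 61160 in injured pools and 30520 to 79830 in sham pools.

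**Figure D4:**
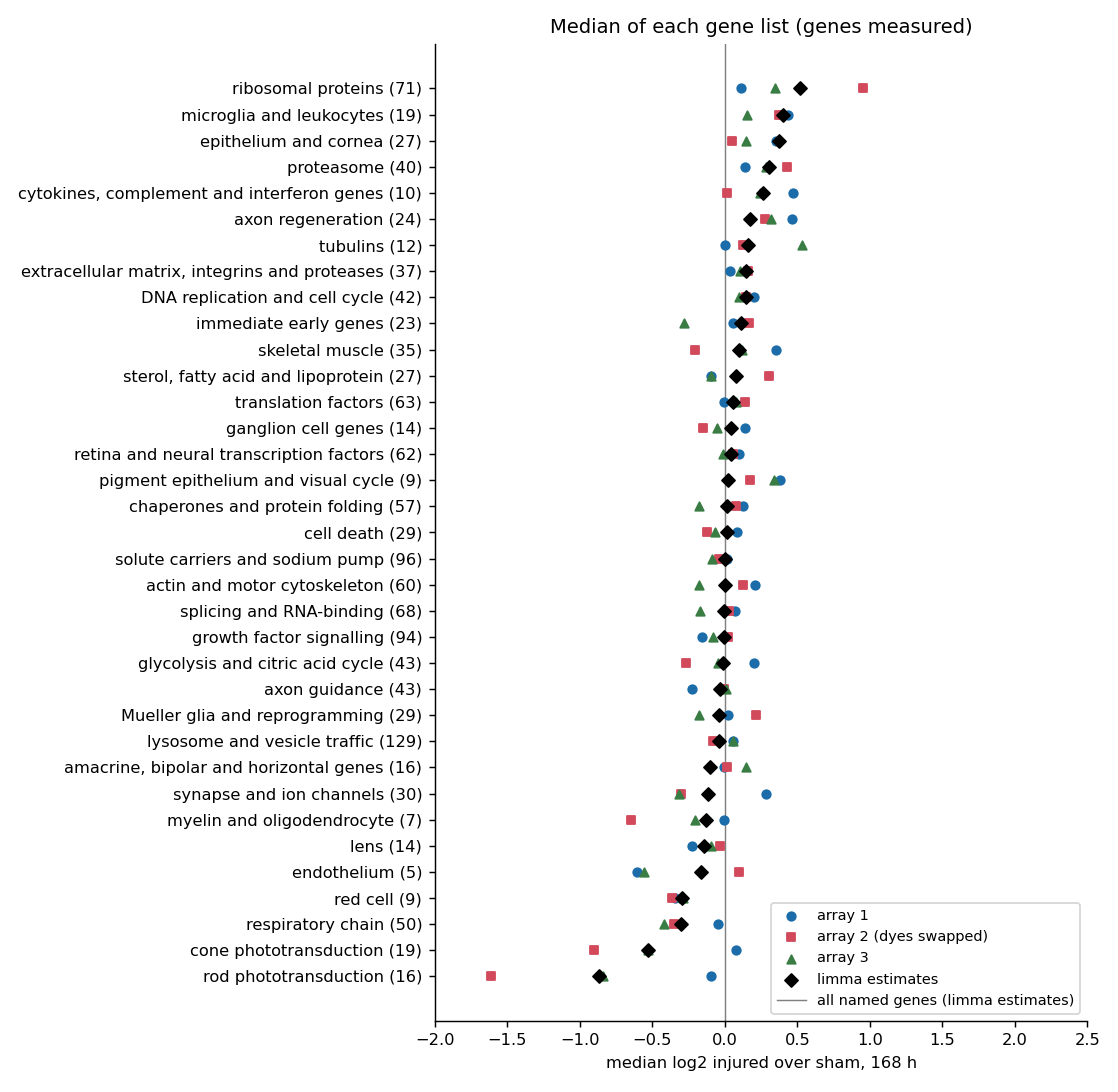
Median log2 ratio of injured over sham at 168 h for the 35 gene lists, ordered by the median of the limma estimates (diamonds), with the median on each array (circles, squares, triangles) and the number of genes measured in brackets. The ribosomal protein list lies at 0.52 and the rod list at -0.87, the grey line marks all named genes at 0.001, and in the rod and cone lists array 1 lies close to that line.

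Several genes below 0 outside the phototransduction lists had the same sign on all 3 arrays. The gene ndrg3a had -1.27, -1.17 and -1.13 (-1.11 ± 0.29, adjusted p = 0.397 in limma), with a second detected probe at -1.26. The small GTPase arl3l2, of a family that carries proteins to photoreceptor cilia, had -0.77, -2.08 and -2.03 (-1.62 ± 0.34). The dachshund gene dacha, a transcriptional cofactor of eye development, had 7456, 3670 and 3784 in injured pools, against 14890, 15180 and 6799 in sham pools (-1.33 ± 0.32, and -0.79 without array 2). These 3 genes, and brd3b, gatd3l, fkbp5 and slc9a7 below, were chosen for being below 0 on every array. Of the 3, ndrg3a had the least spread. The retinal homeobox gene rx2 had -0.69, -0.90 and -1.05 (-0.88 ± 0.31), also close together. The bromodomain gene brd3b had -0.85, -1.67 and -0.71 (-1.13 ± 0.30), and gatd3l -0.92, -2.04 and -0.76 (-1.31 ± 0.31, and -0.84 without array 2). The immunophilin fkbp5, a partner of steroid receptors, had -0.33, -1.91 and -2.44 (-1.54 ± 0.40), and the sodium-proton exchanger gene slc9a7 had -0.54, -1.57 and -1.59 (-1.20 ± 0.32). For both, array 1 was closest to 0. Between unoperated pools the ratios were 1.46 and 0.001 for fkbp5 and 0.42 and -0.008 for slc9a7. They were 0.08 and 1.21 for brd3b and -0.03 and 0.33 for gatd3l. The fatty acid elongase elovl4b, which makes very long chains for photoreceptor membranes, had -0.73, -0.66 and -2.38 (-1.16 ± 0.34). The sodium pump subunit atp1b2b had 0.25, -2.66 and -1.99 (-1.56 ± 0.42, and -2.33 without array 1 with an adjusted p of 0.0456 in limma) and the synaptic vesicle fusion gene snap25b 0.13, -2.41 and -1.43 (-1.30 ± 0.40), neither below 0 on array 1. Without array 2 atp1b2b stood at -0.83 and snap25b at -0.51.

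Respiratory chain genes, which encode the enzymes of mitochondrial ATP production, stood mostly below 0. Of 50 measured, 35 had an estimate below 0, 33 were detected, and 11 of these were lower and 1 higher on all 3 arrays, where 11.1% of all detected named genes were lower. At an unadjusted p under 0.05 there were 2 lower, ndufs1 and atp5f1d, and 1 higher, cox6b1, a share close to the 3.64% lower and 4.34% higher over all named genes. The list median was -0.30, with array medians of -0.04, -0.35 and -0.42. Without array 1 it was -0.40 with 9 lower at that p, without array 2 -0.23 with 1 lower and without array 3 -0.23 with 2 lower. The complex I subunit ndufs1 had -0.41, -1.72 and -1.07 (-1.13 ± 0.31), and the ATP synthase subunit atp5f1d had -0.33, -0.57 and -4.03 (-1.53 ± 0.52), a value set by array 3, without which it was -0.45. The subunit cox6b1 of cytochrome oxidase went against the list, with 1370, 5983 and 1034 in injured pools, against 924, 1007 and 553 in sham pools. It was higher on each array, at 0.57, 2.57 and 0.90 (1.51 ± 0.32, and 1.00 without array 2). The mitochondrial gene chchd10, which is in no list here, had -0.88, -1.28 and -1.86 (-1.27 ± 0.30) with another probe at -0.59. Glycolysis and citric acid cycle genes had a median of -0.01 over 43 genes, and the enolase eno1b had -0.44, -1.90 and -0.22 (-0.99 ± 0.31, and -0.57 without array 2).

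Genes of Mueller glia, the supporting cells that span the retina, shared no common direction. Vimentin, vim, an intermediate filament of Mueller glia and other cells, had 1.01, 1.77 and 0.57 (1.17 ± 0.37, and 0.76 without array 2), above the empty positions in 2 of 3 injured and 2 of 3 sham pools. The glial fatty acid carrier fabp7a had 0.14, 2.24 and -0.02 (1.05 ± 0.30, and 0.72 without array 2) and was detected in 1 injured and 1 sham pool. Glutamine synthetase, glula, which Mueller glia use to clear glutamate, had 0.41, -1.07 and -1.81 (-0.83 ± 0.38). Its estimate was -1.44 without array 1 and -0.33 without array 3. The transcription factor ascl1a, needed in fish for Mueller glia to form new neurons, had -0.49, 1.07 and 0.87 (0.40 ± 0.41, and -0.42 without array 2). The glial filament gene gfap was not detected in any channel. The Mueller glia and reprogramming list as a whole had a median of -0.04 over 29 genes, with 1 of 14 detected members (7.1%) higher on all 3 arrays and 0 lower. Of all detected named genes, 12.5% were higher and 11.1% lower.

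Microglia and leukocyte genes had a median of 0.40 over 19 genes, with 15 above 0. The median was 0.16 in the authors' deposited table, 0.22 over the 11 detected genes and 0.18 with no background subtraction. Of the 11 detected, 3 were higher and 0 lower on all 3 arrays, where 12.5% of all detected named genes were higher, and 5 of the 19 had an unadjusted p under 0.05, all higher, beside 4.34% over all named genes. Without array 2 that number was 0, while the median was 0.44. The granulin gene grna.2, of a family secreted by macrophages, had 1.48, 1.78 and 0.80 (1.32 ± 0.32, and 0.82 without array 2) and was detected in 2 injured and 1 sham pool. Lysozyme, lyz, had 0.23, 3.24 and -0.52 (1.19 ± 0.44) and was at -0.07 without array 2. The lipid carrier apoeb, made by microglia and Mueller glia, had 0.76, 1.66 and -0.20 (0.85 ± 0.32, and 0.44 without array 2) with another probe at 0.96. The summed intensity of the 7 leukocyte markers on the arrays was 6405 to 25360 in injured pools and 5120 to 10010 in sham pools, with 5 markers detected on all 3 arrays. The part of cell numbers in these values was not tested.

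Epithelium and cornea genes had a median of 0.37 over 27 genes, with 21 above 0, 12 detected and 3 of these higher and 0 lower on all 3 arrays, where 12.5% of all detected named genes were higher. The median was 0.19 in the authors' deposited table and 0.18 with no background subtraction. It was 0.12 without array 1, 0.69 without array 2 and 0.19 without array 3. Between unoperated pools the list median was -0.06 and -0.42, the second no smaller in size than at 168 h. At 24 h it was 0.52. The keratin krt8 had 1.13, 0.67 and 0.31 (0.79 ± 0.33) and another detected probe at 0.87, and anxa1a had 1.72, -0.77 and 2.44 (0.79 ± 0.38, and 1.25 without array 2). Collagen col1a1a had 0.61, 1.07 and 1.19 (1.14 ± 0.35) with detection in 2 injured and 1 sham pool, and the lysosomal protease ctsd had 0.36, 1.26 and 1.09 (0.85 ± 0.32, and 0.37 without array 2). All 3 arrays were above 0 in both. Muscle genes were mixed. The actin actc1b had 1.43, 0.45 and 0.53 (0.82 ± 0.33), the mitochondrial creatine kinase ckmt1 had -1.04, -0.77 and -0.68 (-0.80 ± 0.31) with 2 other detected probes at 0.06 and 0.63, and the skeletal muscle median was 0.10 over 35 genes (0.22 without array 2). The beta globin hbba2 had -0.45, -2.99 and 0.09 (-1.37 ± 0.39, and -0.64 without array 2), and the red cell median was -0.30 over 9 genes. The fitted dye effect of hbba2, as Cy5 over Cy3, was -0.78 (adjusted p = 0.0419 in limma). Between unoperated pools its ratios were 0.21 and -1.51. The tissue was labelled as an eye with its lens removed. Of 4 lens markers on the arrays, 0 were detected on all 3 arrays, and cryaa and cryba4 were not detected in any channel. Of the 14 measured genes of the lens list, 3 were detected on all 3 arrays.

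Genes of cell division gave few values. The DNA polymerase subunit pold1 had 1.93, 0.45 and 1.02 (0.94 ± 0.32), with another detected probe at -0.38. The replication clamp pcna had 0.08, 1.15 and 1.56 (0.95 ± 0.36). The DNA replication and cell cycle list had a median of 0.14 over 42 genes (-0.004 without array 2), 30 of them above 0. Of its 16 detected genes, 5 were higher and 0 lower on all 3 arrays, where 12.5% of all detected named genes were higher. Of the 42, only pold1 and pcna had an unadjusted p under 0.05, a share close to the 4.34% higher over all named genes. Between unoperated pools the list median was -0.24 and 0.03. The growth factor fgf24 had 1.65, 0.48 and 3.1 (1.44 ± 0.32), detected in 3 injured and 1 sham pool, and the growth factor signalling list had a median of -0.01 over 94 genes. The gene was above 0 on each array while its list was centred on 0. The lists not described so far, among them immediate early genes (0.11), endothelium (-0.17), synapse and ion channels (-0.12), axon guidance (-0.03), splicing and RNA-binding (-0.01) and lysosome and vesicle traffic (-0.04), had medians nearer to 0 than the red cell list. The bHLH factor neurod4 of amacrine cells had 0.73, 0.78 and 0.29 (0.68 ± 0.29).

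**Figure D5:**
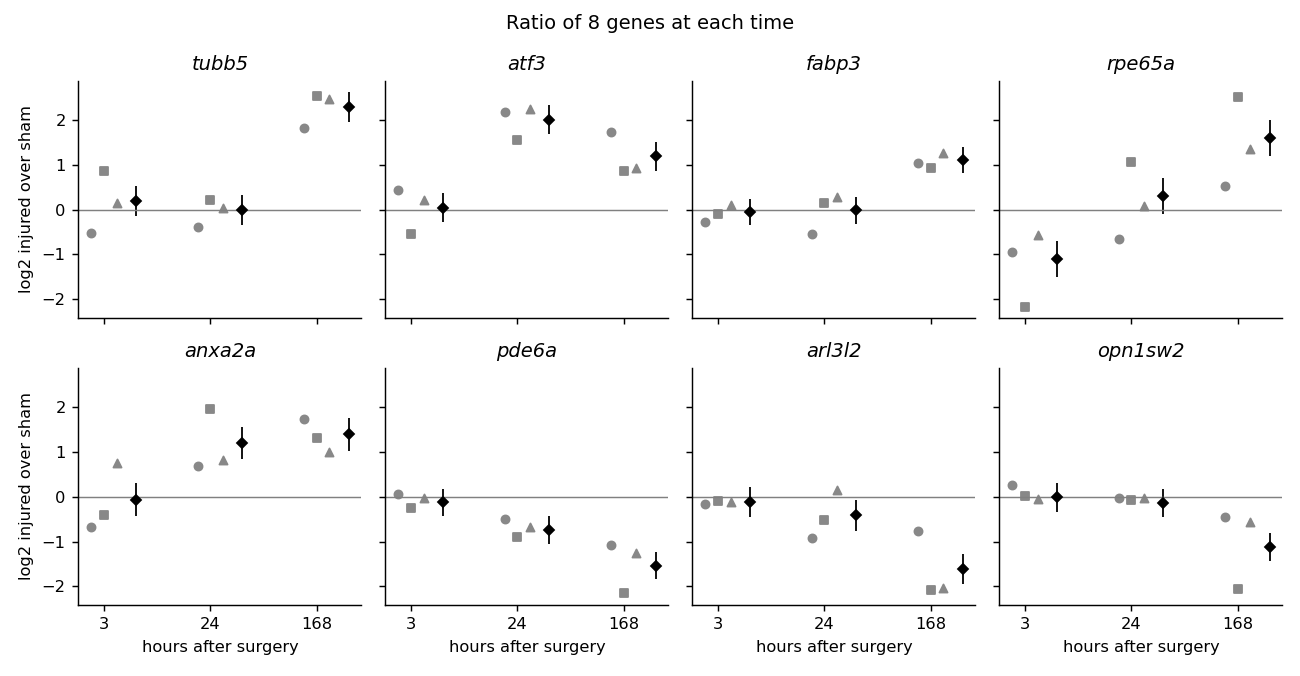
Log2 ratio of injured over sham at 3, 24 and 168 h after surgery for 8 genes. Grey symbols are the 3 arrays of each time (circle, square and triangle for arrays 1, 2 and 3), and black diamonds with bars are limma estimates with standard errors; tubb5, fabp3 and opn1sw2 lie near 0 at 3 and 24 h, whereas anxa2a and atf3 stand at 1.2 and 2.01 already at 24 h.

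The change of ratio between times was tested directly, with other pools at each time. For 168 h minus 24 h, 0 of 14064 probes had an adjusted p under 0.05 in limma, with a smallest of 0.996 and 603 (4.29%) at an unadjusted p under 0.05. For 168 h minus 3 h it was 0 again, with a smallest of 0.927 and 707 (5.03%). The tubb5 difference was 2.31 ± 0.46 from 24 h and 2.12 ± 0.46 from 3 h, with adjusted p-values of 0.996 and 0.927 in limma. Probes that shared a direction on all arrays at 168 h often did so at 24 h. Among 3772 probes detected at both times, 489 were higher on all 168 h arrays, of which 173 were also higher on all 24 h arrays. These were 35.4% of the 168 h probes and 30.5% of the 567 that were higher at 24 h, where 15% of all 3772 were higher at 24 h. Of 431 lower at 168 h, 100 were lower at 24 h, or 23.2% of the 168 h probes and 30.6% of the 327 at 24 h, beside 8.67% of all. With 3 h, 93 of 476 higher probes (19.5%, and 22.6% of the 412 at 3 h) and 84 of 428 lower probes (19.6%, and 30.3% of the 277 at 3 h) were shared, beside 10.96% higher and 7.37% lower at 3 h among all 3759 detected at both times. Each time had 2 arrays with sham in Cy5 and 1 with injured in Cy5, and the part of dye in these overlaps was not tested.

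Probes of the same gene were also compared within the same arrays. Of 460 genes with at least 2 detected probes, 159 had a probe higher on all 3 arrays and 51 had 2 or more, while 91 had a probe lower on all 3 and 13 had 2 or more. Of all detected probes, 13.3% were higher and 10.3% lower. A gene with more probes is more likely to hold such a probe, and no expected count was computed. Many of the 51 were ribosomal protein genes, for which cross-hybridisation was not tested. In 14 genes 1 probe was higher and another lower. The chaperone gene hspa5 was one of these, with 5 probes higher and 1 lower of 8. Genes with most probes higher included rps3a, a ribosomal protein gene, and fthl27, a ferritin gene, each with 5 of 6, and tuba8l4 with 4 of 5. Genes with both of 2 probes lower included ndrg3a, gnb1a, brd3b, the neuropeptide gene npy and the complex I genes ndufb8 and ndufb9. The genes of this paragraph that were not described before it were chosen after their values were seen.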

How the data were processed

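The authors deposited scanner files of 2-colour oligonucleotide arrays, whose foreground and background intensity values per spot are, per the file headers, in Cy5 and Cy3 and not normalised. The deposited table of log2 values holds 1 value per probe and time. Its direction follows the array names, its column median at 168 h is 0.011, and its normalisation is not given in the sources used here beyond limma, which the submitters' processing notes name. Entries of that table had slipped by 1 or 2 places for 1913 zebrafish probes, so it was matched to spots on the 3 h and 24 h values (tolerance 0.05), which left 22 probes unmatched. Of the matched probes, 95.8% had a 168 h value within 0.02 of the mean of the 3 loess-normalised ratios with no background subtraction. The deposited values come from the same arrays and are not a separate measurement.

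In limma 3.58.1 (R 4.3.3), foreground means were corrected by normexp (offset 50) and normalised by loess within each array. All 9 injured-against-sham arrays were fitted together, with 1 coefficient per time and a common dye effect (5 residual and 9.99 prior degrees of freedom), and two-sided p-values were adjusted by Benjamini-Hochberg over all zebrafish probes. The fit was also run on simulated ratios, with noise drawn independently for each probe and array. Deviations that many probes of an array share were left out, so the simulation cannot show that the p-values hold for these arrays. Gene names came from accessions and symbols, giving 8352 probes in 5112 genes, with the brightest probe standing for a gene in list counts. Many accessions sit on several spots of very different brightness, so the gene names of faint spots are uncertain. No probe sequence was used here.

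Named genes were the 15 higher and 15 lower with the smallest p among named probes detected in both channels of all 3 arrays with 1 sign, up to 4 members of each list by p with its defining genes, and genes with the smallest p in the differences between times. The members and lists were chosen with earlier results of these data known. Alternatives covered background, normalisation, dye, detection and each array left out.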

Additional observations from a re-analysis of the deposited data

Results flagged for a closer look

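Of the 158 genes chosen by the naming rule, 17 had every array of 168 h on 1 side of 0 and every array of another time on the other side, 6 of them detected in all 6 pools at 168 h. The rule picked some genes for a small p in the differences between times, so opposite signs are partly built in. Among all 3772 probes detected at both 168 h and 24 h, 13 were higher on all 168 h arrays and lower on all 24 h arrays, and 21 the reverse. With 3 h the counts were 18 and 46 of 3759. The text describes 4 of the 17, all of them picked for such a difference, and each difference missed the limma adjustment over all probes. The visual cycle enzyme rpe65a had 0.53, 2.53 and 1.36 at 168 h and -0.95, -2.18 and -0.57 at 3 h, a difference of 2.71 (adjusted p = 0.927 in limma). The ribosomal protein gene rpl7a had 0.22, 1.72 and 0.27 at 168 h and -1.21, -0.89 and -0.01 at 3 h, a difference of 1.44 (adjusted p = 0.927 in limma), and its 10 other detected probes at 168 h lay between -0.62 and 0.95. The fatty acid carrier fabp10a had -0.54, -0.86 and -1.88 at 168 h and 0.26, 0.30 and 0.03 at 3 h, a difference of -1.29 (adjusted p = 0.927 in limma). The cyclin gene ccnf had -0.09, -0.23 and -0.54 at 168 h and 2.01, 1.14 and 0.36 at 24 h, a difference of -1.46 (adjusted p = 0.996 in limma). Without array 2 of 168 h the estimate at 168 h was 0.57 for rpl7a and -0.91 for ccnf, against 0.89 and -0.41 with it. Dixon's test of outlying samples was not applied to groups of 3 arrays.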

How the results depend on the processing

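The count of probes under an adjusted p of 0.05 at 168 h, 0 as reported, was 6 with no background subtraction, 1 with median centring, 1 with foreground medians and 2 over probes detected in both channels, and 0 to 10 with 1 array left out (10 without 168 h array 1, 1 without 3 h array 2). The 1101 probes at an unadjusted p under 0.05 became 274 over bright probes, 650 with no dye effect and 380 with the 168 h arrays alone. For 168 h minus 24 h, 603 became 50 over bright probes and 291 with no dye effect, and 517 to 912 with 1 array left out. For 168 h minus 3 h, 707 became 106 and 338. Bright probes and 168 h arrays alone test fewer probes or arrays by construction. The cause of the change with no dye effect or without 168 h array 1 was not tested. Probes higher on all 3 arrays, 657, became 246 over bright probes, 299 at the 99th percentile of the empty positions, 93 at 0.5 or more on each array and 1313 to 2186 over 2 arrays. Probes lower, 505, became 273 with median centring, 48 at 0.5 or more, 1506 with dyes from the labels, 790 after removal of the dye effect, a setting chosen after seeing the data that gave 961 higher, and 1029 to 1385 over 2 arrays. The cause of the changes with median centring, dyes from the labels and the dye effect removed was not tested. Many of the 84 named genes were chosen for 1 sign on all 3 arrays or for a small p, which makes a reversal unlikely. Dyes taken from the labels were not run for genes or lists. Of the 84 genes, 79 kept their sign under every alternative run for them. With 1 array left out their ranges were -0.17 to 0.70 for gap43, -0.35 to 0.25 for jun, -0.47 to 0.47 for isl2b, -0.42 to 0.97 for ascl1a and -0.068 to 1.73 for lyz. The reversals were gap43 (-0.17), ascl1a (-0.42) and lyz (-0.068) without 168 h array 2, jun (0.13 with no dye effect and with 168 h arrays alone, 0.25 without 168 h array 2) and isl2b (-0.008 with no background subtraction, -0.01 without 168 h array 1, -0.47 without 168 h array 2). Among the 35 lists, no median of 0.25 or more changed sign. Beside tubb5, the probes that passed with no background subtraction were of ppiaa (1.31), pde6a (-1.52), crip1 (1.80) and 2 unnamed probes, and without 168 h array 1 of pdcb (-2.27), gnb3b (-2.57), atp1b2b (-2.33), gnat1 (-2.62), aldocb (-2.47), oprd1b (-2.57, not detected on every array) and 3 unnamed probes. Quantile normalisation of average intensities leaves ratios as they are. Each ratio pairs an injured with a sham pool within its array. No paired analysis beyond this was possible because each time is 1 sample in the labels. The labels number the replicates of each time but do not say that equal numbers link arrays of different times. Faint probes limit the rest, since 4924 of 14067 were detected.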
